A study of Mus musculus with 4 samples.

Results

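The 10 genes described here encode subunits of voltage-gated calcium channels in the mouse spinal cord. They are the 3 alpha2delta genes Cacna2d1, Cacna2d2 and Cacna2d3 and 7 genes of the pore-forming subunit, Cacna1a, Cacna1b, Cacna1c, Cacna1d, Cacna1e, Cacna1g and Cacna1h. They were chosen by symbol, and all 10 are among the 32285 genes of the count tables. Single-nucleus RNA sequencing of the mouse dorsal horn gave 4 libraries, 1 per group: naive wild-type mice (Gpr37l1+/+), naive Gpr37l1-/- mice, wild-type mice 1 day after spared nerve injury (SNI) and Gpr37l1-/- mice 1 day after SNI. SNI is a model of neuropathic pain in which some branches of the sciatic nerve are cut and another is left intact. Gpr37l1 encodes an orphan receptor of glia, chiefly of astrocytes. The sources used here do not give the number, age, sex or strain of the mice, or whether nuclei of several mice were pooled. The groups follow the sample titles and library names, since the treatment tag of the labels says the opposite for the naive knockout and the injured wild type. Values for the 4 libraries are always given in the order naive wild type, naive knockout, injured wild type and injured knockout.

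A voltage-gated calcium channel opens when the membrane depolarises and lets calcium into the cell through its alpha1 pore subunit. The pore sets the channel type: Cacna1a makes P/Q-type and Cacna1b N-type channels, which trigger transmitter release at synapses. Cacna1c and Cacna1d make L-type channels, which couple electrical activity to gene expression and slow firing, Cacna1e makes R-type channels, and Cacna1g and Cacna1h make T-type channels that open near the resting potential. The alpha2delta subunit is an extracellular auxiliary protein that raises the number of channels at the cell surface and at release sites. Cacna2d1 and Cacna2d2 encode the proteins that bind gabapentin and pregabalin, drugs used against neuropathic pain, and Cacna2d1 is the one linked to their effect on pain. Cacna2d1 in the dorsal horn is best known from the terminals of sensory neurons, whose cell bodies lie in the dorsal root ganglion and contribute no nuclei here.

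Kept nuclei numbered 17771 to 33771 a library, with 30010757 to 61476929 UMIs (unique transcript molecules). Gpr37l1, the deleted gene, had 424, 20, 1103 and 10 UMIs over all kept nuclei, low in both knockout libraries as labelled. Classes are named from marker genes only, so each is a like class (excitatory-neuron-like, astrocyte-like), and the suffix is left out below. Between 29.8% and 55% of the nuclei of a library were in clusters without a name. The naive knockout library stood apart: it had 334 oligodendrocyte nuclei against 2879 to 3305 in the others. That low count depends on the clustering. Another 4450 of its nuclei lay in unnamed cluster 6, which shared leading genes such as A230001M10Rik and Pde8a with the oligodendrocytes. With coarser clusters (resolution 0.5) the naive knockout had 6117 oligodendrocyte nuclei, against 4013 to 4659 in the others. In its excitatory neurons Malat1, a nuclear RNA, was at 39322 CPM (UMIs scaled to a common total) against 55513 to 77639, and genes spanning over 100 kb took 57.2% of UMIs against 50.3% to 53.6%. Of an unnamed cluster of 10175 nuclei led by Actb and Aldoc, 4827 came from the naive knockout and 4966 from the injured wild type, and 130 and 252 from the other libraries. Any 2 libraries shared 162 to 293 barcodes. Among shared barcodes that were kept, 21.3% to 30.7% had the same class in both libraries, and independent classes would give 21.1% to 32.2%.

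A level below is the summed UMIs of a gene over the nuclei of a class in 1 library, scaled to CPM by the total of that class without mitochondrial genes. The members are long genes, and 8 of the 10 span over 100 kb. Their spans run from 59.5 kb for Cacna1h to 817 kb for Cacna2d3, against a median of 12.3 kb over annotated genes. Levels of different genes are therefore compared only per 100 kb of gene span.

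Cacna2d1 and Cacna2d3 had opposite levels in the neuron classes of the dorsal horn. Cacna2d1 was higher in excitatory and Cacna2d3 in inhibitory neurons in all 4 libraries. Cacna2d2 was counted in both neuron classes and was somewhat higher in the inhibitory one. Cacna2d1 lies at chr5:15934691-16374511 on the plus strand, Cacna2d2 at chr9:107399612-107529343 on the plus strand and Cacna2d3 at chr14:28904943-29721864 on the minus strand (GRCm38, GENCODE vM21).

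The stretches before the starts of Cacna2d1 and Cacna2d3 are shown because these genes have opposite levels in the same nuclei. The lines hold the 250 bases up to the RefSeq start (GRCm38.p6), at chr5:15934441-15934690 on the plus strand and chr14:29721865-29722114 on the minus strand, 5′ to 3′, with every CG dinucleotide in capitals.
Cacna2d1: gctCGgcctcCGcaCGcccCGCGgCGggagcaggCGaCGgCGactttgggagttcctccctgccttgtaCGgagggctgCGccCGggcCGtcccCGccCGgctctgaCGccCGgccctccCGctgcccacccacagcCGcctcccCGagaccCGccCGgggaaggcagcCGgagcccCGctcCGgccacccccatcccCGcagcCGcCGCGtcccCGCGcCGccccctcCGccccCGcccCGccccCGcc
Cacna2d3: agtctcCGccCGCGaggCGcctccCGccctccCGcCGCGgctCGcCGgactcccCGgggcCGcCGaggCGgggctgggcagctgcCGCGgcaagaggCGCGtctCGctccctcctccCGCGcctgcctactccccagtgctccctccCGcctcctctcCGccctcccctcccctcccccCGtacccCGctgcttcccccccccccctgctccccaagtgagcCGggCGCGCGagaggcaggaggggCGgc
Both stretches were rich in CG. Cacna2d1 had 36 CG dinucleotides and 82.4% G or C, and Cacna2d3 had 30 and 80.0%. Over 32851 windows of the same length the median was 6 CG dinucleotides, 92.1% of windows held at least 1, and 2.58% and 5.94% held at least as many as Cacna2d1 and Cacna2d3. CG reads the same on both strands, and the match describes these letters only.

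In excitatory neurons Cacna2d1 stood at 1350, 1333, 1198 and 1372 CPM. In inhibitory neurons it stood at 116, 268, 124 and 156 CPM. The excitatory values were close together and far above every inhibitory one, and the naive knockout was the highest inhibitory value. Cacna2d1 was lower in inhibitory than in excitatory neurons by 3.08 on the log2 scale, an 8.48-fold difference (log2 fold change -3.08, SE 0.17, edgeR quasi-likelihood test, adjusted p = 1.63e-14, lower in 4 of 4 libraries). Over the alternatives tried the log2 value ran from -3.32 to -2.91. Such tests use the 4 libraries as replicates of a class, although they are 4 conditions, and the classes were built from other genes of the same nuclei, so the p-values describe these clusters.

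Cacna2d3 had the reverse pattern. In inhibitory neurons it stood at 1301, 1389, 1303 and 1368 CPM. In excitatory neurons it stood at 152, 316, 199 and 216 CPM. The groups did not overlap, and the naive knockout again held the highest value in the class where the gene was low. The log2 fold change was 2.66 (SE 0.14, adjusted p = 3.03e-15), 6.33-fold, with a range of 2.52 to 2.93 over the alternatives.

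Cacna2d2 stood at 145, 121, 141 and 136 CPM in excitatory neurons and at 195, 165, 207 and 203 CPM in inhibitory neurons. The ranges over libraries did not overlap, but the difference was small. The log2 fold change was 0.51 (SE 0.09, adjusted p = 7.34e-05), 1.43-fold, under the 1.5-fold required of a call here. With every nucleus thinned to 1000 UMIs it was 0.63 and passed.

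**Figure D1:**
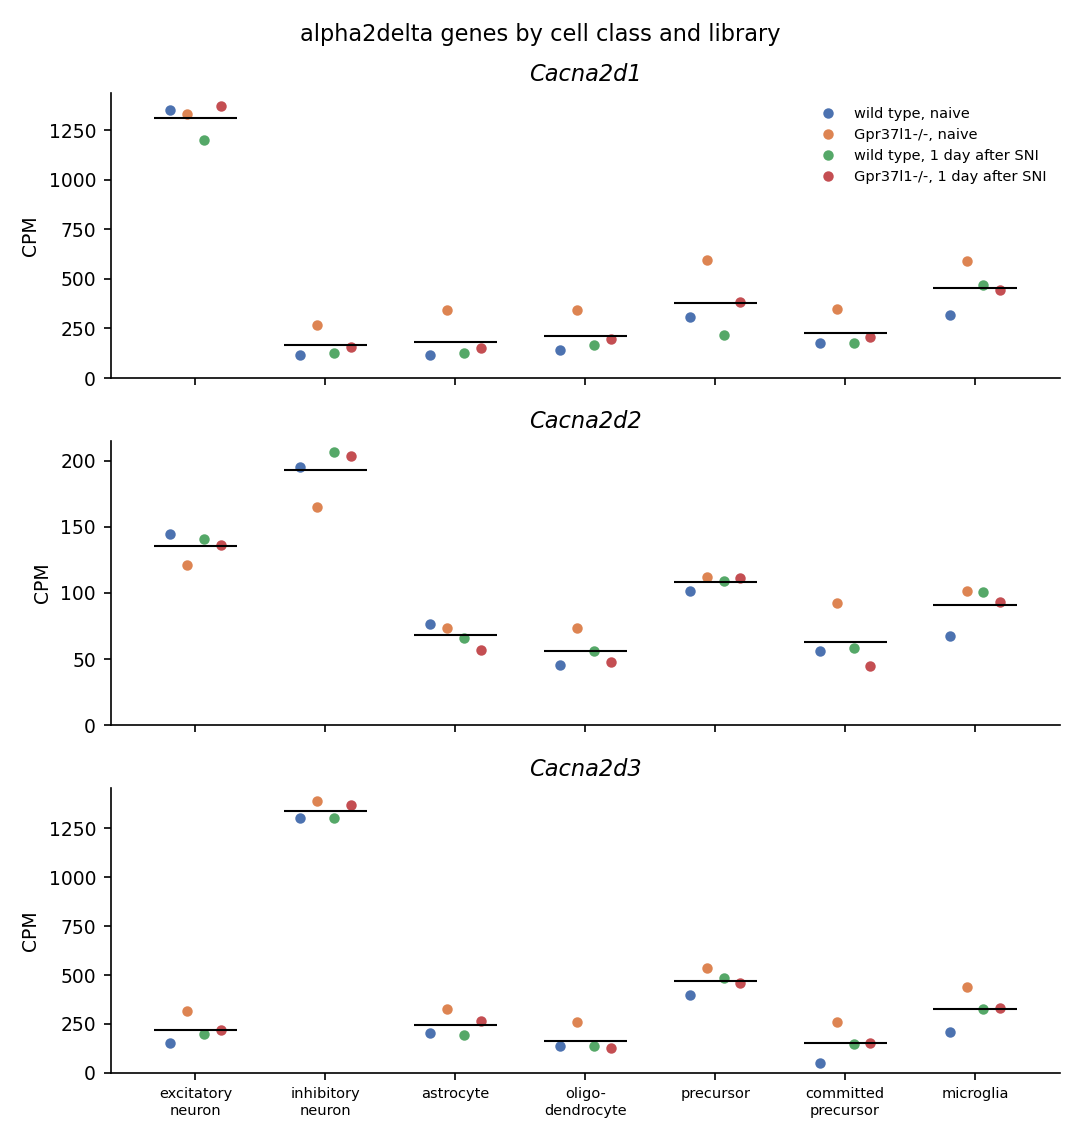
CPM of the 3 alpha2delta genes in 7 classes; each point is 1 library, coloured by group, and the line is the mean of the 4 libraries. Cacna2d1 is high only in the excitatory column (1198 to 1372 CPM) and Cacna2d3 only in the inhibitory column (1301 to 1389 CPM), and the naive knockout point is the highest in most of the low columns.

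The share of nuclei with a transcript gave the same picture. At a common depth of 1000 UMIs, reached by thinning deeper nuclei and leaving out others, 68.5%, 69.7%, 64.7% and 69.9% of excitatory neurons held a Cacna2d1 UMI. Of inhibitory neurons 9.23%, 21.5%, 10.4% and 12.9% did. Shares in oligodendrocytes and microglia are given for comparison, and the part of free RNA in them was not tested. Oligodendrocytes gave 10.2%, 26.2%, 15.1% and 10.4%, so the inhibitory share was below theirs in 3 libraries and slightly above it in the injured knockout. Microglia gave 21.2%, 37.4%, 30.1% and 30.2%, above the inhibitory share in every library. The source of the inhibitory share was not tested, and it is not read as expression. Relative to the mean of the neuron classes, the CPM of Cacna2d1 in oligodendrocytes was at 19.2% to 43.0%, above the neuron markers there (11.7% to 28.6%) in 4 of 4 libraries. Without thinning the excitatory shares were 81.1%, 85.4%, 81.4% and 80.0%, and the inhibitory ones 14.9%, 37.0%, 18.2% and 18.6%.

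For Cacna2d3 the thinned shares were 61.0%, 66.0%, 61.0% and 63.9% of inhibitory neurons. They were 9.77%, 20.6%, 13.2% and 14.6% of excitatory neurons, beside 9.47%, 26.9%, 10.0% and 9.95% of oligodendrocytes. Without thinning they were 72.1%, 79.8%, 74.6% and 72% of inhibitory and 15.7%, 34.6%, 21.9% and 19.3% of excitatory neurons. After thinning the excitatory share was thus slightly above the oligodendrocyte share in 3 libraries and below it in the naive knockout. Thinned microglia shares were 18.9%, 25.3%, 21.8% and 21.7%, above the excitatory share in every library. Median UMIs before thinning were 1306 to 1732 in excitatory neurons, 1469 to 1924 in inhibitory neurons and 667 to 961 in oligodendrocytes. The thinned oligodendrocyte shares of the naive knockout rest on 145 nuclei for each gene. For Cacna2d2 the thinned shares were 10.7% to 13.1% of excitatory and 15.5% to 19.5% of inhibitory neurons. Both classes were above oligodendrocytes (1.75% to 8.28%) and microglia (5.86% to 9.29%) in every library. The intervals for counting error of excitatory neurons and microglia overlapped in both knockout libraries. They were 9.98% to 11.4% against 6.12% to 11.3% in the naive and 11.1% to 12.9% against 7.21% to 11.7% in the injured knockout. Precursors of the naive knockout gave 12.5%, above its excitatory share of 10.7%, and were below the excitatory share in the other libraries. The part of free RNA in the Cacna2d2 shares was not tested.

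The pore genes differed less between the neuron classes than Cacna2d1 and Cacna2d3 did. Of the 10 members, 1 (Cacna2d3) was called higher in inhibitory neurons and 3 (Cacna2d1, Cacna1d and Cacna1h) lower, where a call needs an adjusted p under 0.05 and a 1.5-fold difference. Over all 14144 genes tested 3.63% were called higher and 4.69% lower. Cacna1d, an L-type pore gene at chr14:30039939-30491455, stood at 412, 421, 391 and 429 CPM in excitatory and 247, 284, 244 and 273 CPM in inhibitory neurons. The excitatory values were higher in every library, with a log2 fold change of -0.65 (SE 0.11, adjusted p = 5.68e-05). Cacna1h, a T-type pore gene at chr17:25374285-25433783 and the member with the fewest UMIs, stood at 24.3, 24.1, 19.9 and 24.1 CPM in excitatory and 12.5, 11.3, 11.8 and 12.7 CPM in inhibitory neurons. It too was higher in excitatory neurons in every library, with a log2 fold change of -0.93 (SE 0.12, adjusted p = 3.47e-07).

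The other pore genes did not pass the test between the neuron classes. Cacna1a, the P/Q-type pore gene at chr8:84388440-84640246 on the plus strand, stood at 1058, 933, 1233 and 1136 CPM in excitatory and 1050, 935, 1176 and 1085 CPM in inhibitory neurons. The library order was the same in both classes, and the log2 fold change was -0.03 (SE 0.11, adjusted p = 0.952). Cacna1b, the N-type pore gene at chr2:24603887-24763152, stood at 226 to 254 CPM in excitatory and 224 to 239 CPM in inhibitory neurons, with a log2 fold change of 0.00 (SE 0.14, adjusted p = 1.00). The L-type gene Cacna1c (chr6:118587240-119196418) stood at 689 to 730 CPM in excitatory and 708 to 784 CPM in inhibitory neurons. The R-type gene Cacna1e (chr1:154390731-154884501) stood at 636 to 742 and 711 to 772 CPM, and the T-type gene Cacna1g (chr11:94408391-94474198) at 61.6 to 66.2 and 65.6 to 70.3 CPM. The log2 fold changes of these 3 genes were 0.09 (SE 0.13), 0.11 (SE 0.15) and 0.10 (SE 0.08). The pore genes other than Cacna1a lie on the minus strand.

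**Figure D2:**
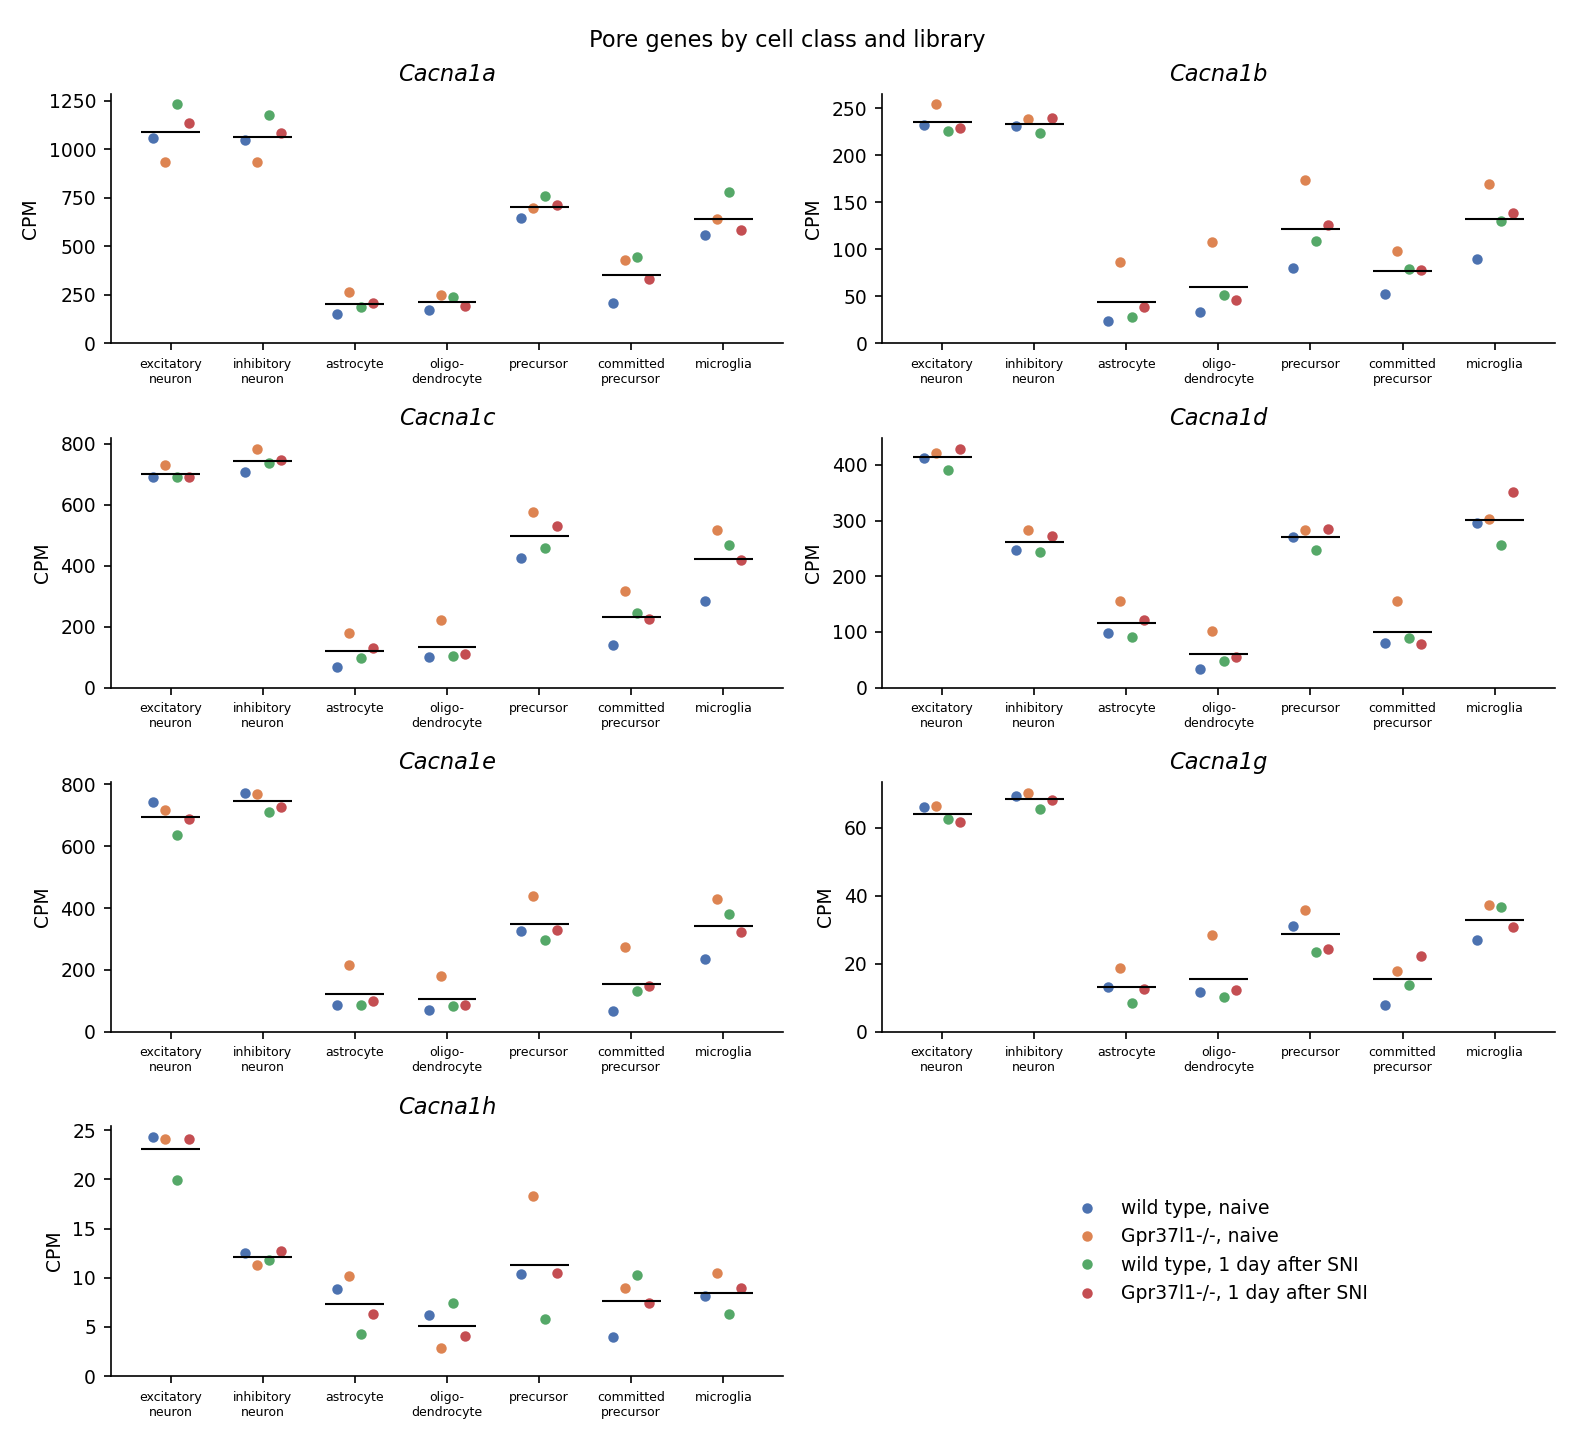
CPM of the 7 pore genes in 7 classes, with 1 point a library and a line at the mean; each panel has its own scale from 0. Both neuron classes lie above every glial class for Cacna1a, Cacna1b, Cacna1c, Cacna1e and Cacna1g. For Cacna1d and Cacna1h the excitatory column is above the inhibitory one, whose values overlap those of microglia and precursors (Cacna1d) and of precursors (Cacna1h).

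Per 100 kb of gene span, Cacna1a had the highest level of the members in both neuron classes, 370 to 489 CPM per 100 kb in excitatory and 371 to 467 in inhibitory neurons. Next in excitatory neurons was Cacna2d1 at 272 to 312 CPM per 100 kb, and next in inhibitory neurons Cacna2d3 at 159 to 170. Neither of these ranges over libraries overlapped that of Cacna1a. In excitatory neurons Cacna1b at 142 to 160 CPM per 100 kb and Cacna1e at 129 to 150 followed with overlapping ranges, and Cacna2d3 was last at 18.7 to 38.7. In inhibitory neurons Cacna1e, Cacna2d2 and Cacna1b had means of 151, 148 and 147 CPM per 100 kb with overlapping ranges. The highest Cacna2d2 value reached the lowest of Cacna2d3 (both 159), so these 2 alpha2delta genes did not stand apart per 100 kb. Cacna2d1 was next to last in that class at 26.4 to 61.0, and Cacna1h was last at 19.0 to 21.4.

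Single genes of other calcium channel and release lists differed between the neuron classes, beside the 3.63% and 4.69% of all genes called higher and lower. Of 4 beta subunit genes, whose products sit inside the cell and bring the pore to the membrane, none passed in either direction (median log2 fold change -0.09, against 0.01 over all genes tested). Of the other pore and alpha2delta genes, 2 of 4 were tested, and Cacna1i, another T-type pore gene, was higher in inhibitory neurons (log2 1.16, SE 0.08, adjusted p = 2.48e-12). Of 8 gamma subunit and stargazin family genes 6 were tested, and Cacng5 was lower (log2 -1.09). Of 10 proposed alpha2delta partners 9 were tested, and Thbs1, which encodes a thrombospondin, was lower (log2 -1.84) at a mean of 6.43 CPM in excitatory and 1.58 CPM in inhibitory neurons. Of 13 active zone genes, Unc13c, a priming factor of synaptic vesicles, was higher (log2 1.06) and the scaffold gene Erc2 lower (log2 -0.61). Of 11 genes of calcium stores and entry 9 were tested, and the store release channel genes Ryr3 and Itpr1 differed in opposite directions (log2 0.69 and -1.06). None of 8 pump and exchanger genes passed.

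The named neurons and 2 unnamed neuron clusters, numbers 0 and 25, made 20 clusters with at least 50 nuclei in every library. Clusters are given by number with their leading genes, and what follows is a description without a test. Cacna2d1 was highest in excitatory cluster 21, led by Nts, Rspo2 and C1ql3, at 2850, 2271, 2314 and 2595 CPM. Cluster 19, led by Gm36903, Lama4 and Car8, followed at 1929 to 2560 CPM, a range that overlapped that of cluster 21, although cluster 21 was first in all 4 libraries. The lowest excitatory cluster, 4, led by Unc5cl, Lmo3 and Ptger3, still had 795 to 913 CPM, and the lowest of all, inhibitory cluster 17, had 69.1 to 238 CPM.

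Cacna2d3 was highest in inhibitory cluster 10, led by Cdh3, Sema3e and Tll1, at 2291, 2341, 2239 and 2431 CPM. Cluster 36, led by Rxfp2, Car4 and Ppef1, was next at 1885 to 2166 CPM, below every value of cluster 10. The inhibitory neurons were not uniform: cluster 26, led by Plch1, Ecel1 and Qrfpr, had 166, 313, 227 and 189 CPM, within the range of the excitatory clusters. Cluster 26 had 115 to 268 CPM of Cacna2d1, within the range of the other inhibitory clusters. It had the highest mean Cacna2d2 of the 20 clusters, 290 CPM (221 to 344), a range that overlapped cluster 27 (206 to 327), which was higher in the injured wild type. Among excitatory clusters Cacna2d3 was highest in cluster 20, led by Dach2, Cpne4 and C1qtnf7, at 425 to 556 CPM. The largest unnamed neuron cluster, 0, of 14668 nuclei, lay between the classes, with 311 to 437 CPM of Cacna2d1 and 570 to 691 CPM of Cacna2d3. It had the highest median UMIs (2428) and the highest median doublet score (0.147) of the 20 clusters. The part of mixed nuclei in its levels was not tested. Across the 20 clusters the Pearson correlation of log2(CPM + 1) of Cacna2d1 and Cacna2d3 was -0.80, the most negative of all pairs of members; the clusters share the same 4 libraries.

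**Figure D3:**
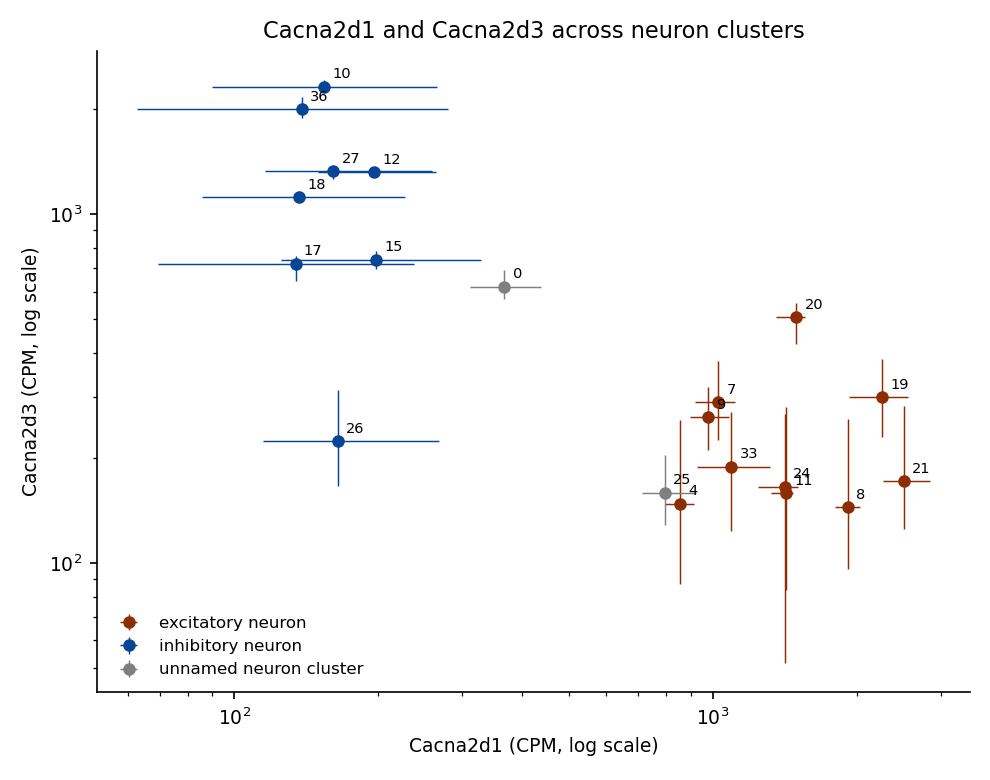
Mean CPM of Cacna2d1 against Cacna2d3 on log axes in the 20 neuron clusters; numbers are clusters and bars give the range over the 4 libraries. Excitatory clusters lie at 856 CPM or more of Cacna2d1, inhibitory clusters at the left, and cluster 26 is low for both genes.

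Pore genes varied among the clusters as well. Cacna1e ranged most among the genes that did not differ between the neuron classes, from 234 CPM in excitatory cluster 9, led by Col27a1, Bmp6 and Maf, to 1865 CPM in inhibitory cluster 36, a ratio of 7.98. Cluster 36 stood at 1993, 1818, 1717 and 1931 CPM of Cacna1e, and inhibitory cluster 27, led by Tyr, Olfr920 and Chrm3, at 1414 to 1497 CPM. Cacna1a was highest in excitatory clusters 33, led by Pde5a, Dnah14 and Cnih3, and 9, at 1572 to 2183 and 1402 to 1958 CPM, overlapping ranges, so cluster 9 joined a high Cacna1a with the lowest Cacna1e. Cacna1d was highest in the unnamed cluster 25, led by Abcc9, Ctcflos and Rreb1, at 543 to 646 CPM and lowest in cluster 27 at 107 to 143 CPM.

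Cacna1h was highest in excitatory clusters 8 and 11, with means of 43.7 and 43.0 CPM, and lowest in cluster 36, with 5 UMIs over the 4 libraries. Cacna1g ran from 32.5 CPM in cluster 8 to 99.7 CPM in cluster 19 and Cacna1c from 454 CPM in cluster 19 to 950 CPM in cluster 27. Cacna1b was nearly even, from 185 to 275 CPM, a ratio of 1.49. Cluster 8 had the highest mean of Cacna1h and the lowest of Cacna1g, but neither stood apart. For Cacna1h its range (38.5 to 47.3 CPM) overlapped that of cluster 11 (40.6 to 45.1). For Cacna1g its range (25.0 to 38.9 CPM) overlapped that of cluster 0 (29.0 to 38.3). Across the 20 clusters the Pearson correlation of log2(CPM + 1) of Cacna1h and Cacna1g was 0.11.

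**Figure D4:**
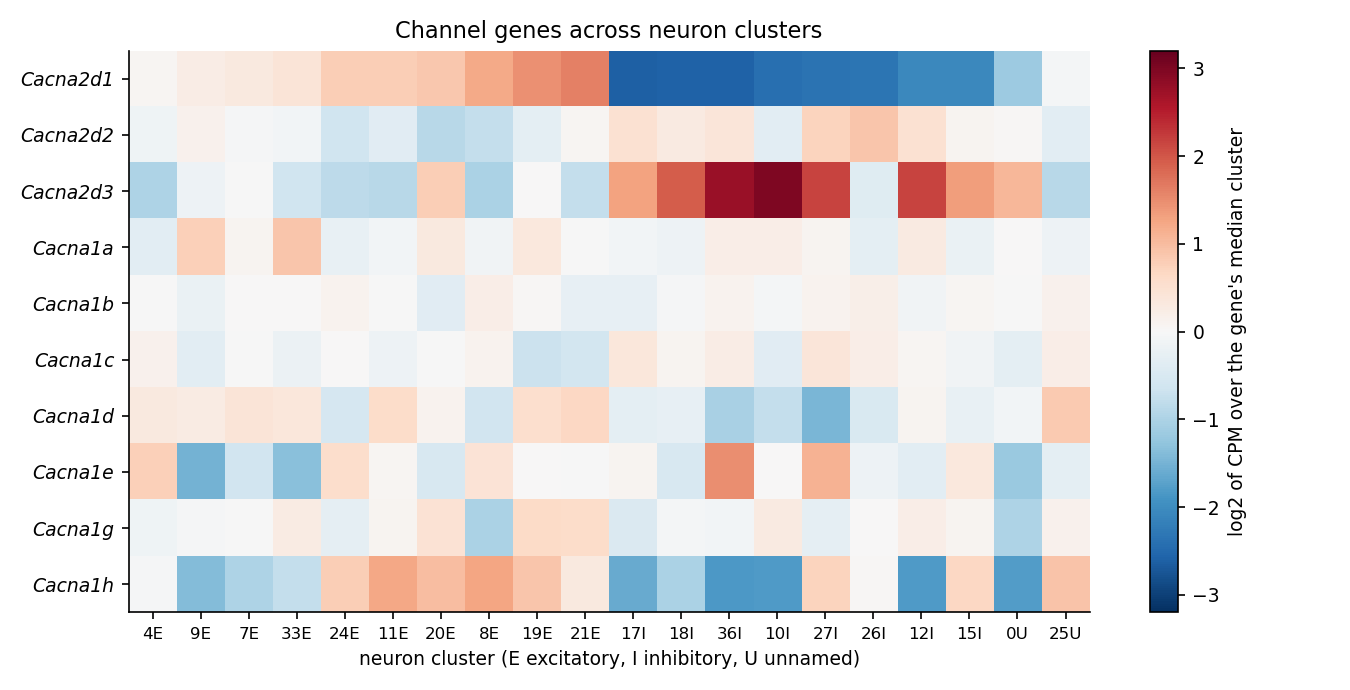
log2 of the mean CPM of each member in a neuron cluster over that member's median cluster, for 20 clusters ordered by class and by Cacna2d1. Red is above and blue below the median cluster, and the row of Cacna1b is nearly blank. The rows of Cacna2d1 and Cacna2d3 have mostly opposite colours. Clusters 19 (only just for Cacna2d3) and 20 are above the median for both, and clusters 25 and 26 below it for both.

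The genes most like each member were sought over 25 points, the 20 neuron clusters and 5 glial classes, among 7428 genes with a mean of at least 20 CPM. The points share libraries and depth, and the values are descriptions. Cacna2d1 was most like Lmx1b (Pearson r = 0.96), Prrxl1 (0.93) and Slc17a6 (0.91), all of which are among the markers used to name excitatory neurons. Cacna2d3 was most like Lrtm1 (0.98), Ppm1e (0.86) and Nox4 (0.84). Lrtm1 lies inside Cacna2d3 on the opposite strand, and where counting does not use strand the reads of such a pair cannot be told apart. Cacna1a was most like Srrm3 (0.96), Gm16183 (0.95), an antisense gene that overlaps it, and Ank1 (0.95). Over the neuron clusters alone these values were lower, at 0.76, 0.67 and 0.79.

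Cacna1b was most like Bicdl1, Svop and Gm49961 (r of 0.96 to 0.97), Cacna1c most like Cdr1os, Rbfox1 and Bicdl1 (0.95) and Cacna1g most like Camk2a, Zfat and Trank1 (0.90 to 0.92). For these 3 genes likeness rested in part on the step from glia to neurons, since over the neuron clusters alone the values of the same genes were 0.28 to 0.70. Cacna1e was most like Slc16a11 (0.93), Rap1gap2 (0.92) and Kcnj6 (0.90), with 0.76 to 0.83 over neuron clusters alone. Cacna1d was most like 4930567K20Rik, Trpm2 and Med12l (0.86 to 0.89), Cacna1h most like Syt16, Wdr6 and Gm29587 (0.83 to 0.86) and Cacna2d2 most like Gm27032, Gm12709 and Drg1 (0.85 to 0.88). Over neuron clusters alone the values were 0.68 to 0.88 for Cacna1d, 0.85 to 0.87 for Cacna1h and 0.67 to 0.75 for Cacna2d2.

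All 10 members were lower in glia (the mean of astrocytes, oligodendrocytes and oligodendrocyte precursors) than in neurons, with log2 fold changes from -2.26 for Cacna1e to -1.06 for Cacna2d1 (adjusted p from 6.33e-18 to 5.59e-08). Over all genes tested 19.2% were called lower and 19.5% higher. The median of the members was -1.69, against 0.05 over all genes tested. Because the mean of both neuron classes includes the class where an alpha2delta gene is low, the order for single classes differs. Cacna2d1 in inhibitory neurons (116 to 268 CPM) overlapped its values in astrocytes (115, 343, 128 and 149 CPM) and oligodendrocytes (141, 344, 166 and 195 CPM). Cacna2d3 in excitatory neurons likewise overlapped astrocytes (205, 325, 191 and 263 CPM) and oligodendrocytes (137, 259, 135 and 127 CPM). For each of these genes the class with the high level was apart from all others, and the next classes overlapped: microglia and precursors for Cacna2d1, and precursors and microglia for Cacna2d3.

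For Cacna1a, Cacna1b, Cacna1c, Cacna1e and Cacna1g the 2 neuron classes came first with overlapping ranges and stood apart from every glial class. For Cacna1d only excitatory neurons stood apart, and microglia, precursors and inhibitory neurons overlapped. For Cacna1h excitatory neurons stood apart and all lower neighbours overlapped. For Cacna2d2 inhibitory neurons, excitatory neurons and precursors were apart in that order. Other neighbours overlapped, except that microglia and committed precursors stood apart for Cacna1a, and inhibitory neurons and astrocytes for Cacna1d.

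Glial values stand beside transcripts of neurons in the same classes. The summed level of 6 neuron markers (Snap25, Rbfox3, Syt1, Snhg11, Meg3 and Stmn2) was 1861, 5366, 2738 and 3049 CPM in astrocytes, from 9.34% to 28.5% of the mean of the neuron classes. None of the 6 was at 0 in any class or library. In the same terms Cacna1b in astrocytes was at 10.0% to 35.2% and Cacna1c at 9.81% to 23.5% of their neuron levels, each above the marker percentage in 2 of 4 libraries. Cacna2d1, Cacna2d2, Cacna2d3, Cacna1d and Cacna1h were above it in 4 of 4. In oligodendrocytes, where the markers were at 11.7% to 28.6%, Cacna1e, at 9.29% to 24.5%, was above it in none, Cacna1d in 1 and Cacna1c in 2. Cacna2d3, Cacna1a, Cacna1g and Cacna1h were above it in 3, and Cacna2d1, Cacna2d2 and Cacna1b in 4 of 4. The part of neuron RNA in the glial levels was not tested.

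Oligodendrocyte precursors had more of every member than the mean of astrocytes and oligodendrocytes. All 10 were called higher, with log2 fold changes from 0.88 for Cacna2d2 to 2.03 for Cacna1c (adjusted p from 6.57e-14 to 0.0230), and 16.0% of all genes tested were called higher. Cacna1c stood at 426, 575, 458 and 528 CPM in precursors, above every value in astrocytes (68.6 to 178 CPM) and oligodendrocytes (101 to 222 CPM). Cacna1a stood at 644, 699, 759 and 712 CPM and Cacna1d at 270, 283, 247 and 284 CPM, and both ranges were above all astrocyte and oligodendrocyte values. The range of Cacna1d in precursors overlapped that in inhibitory neurons (244 to 284 CPM). The neuron markers were higher in precursors too, at 6593, 11703, 7576 and 8458 CPM, from 33.1% to 62.3% of neurons.

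Set against that, Cacna1d in precursors was at 77.7% to 82.0% of its neuron level, above the markers in 4 of 4 libraries, as were Cacna2d2, Cacna2d3, Cacna1a, Cacna1b and Cacna1c. Cacna1g was above them in 1 library. The part of neuron RNA in the precursor levels was not tested. Cacna1h did not pass without the naive knockout library (log2 0.53, adjusted p = 0.420) or without the injured knockout library (log2 0.86, adjusted p = 0.0858). With clusters of a coarser resolution Cacna2d1 (log2 0.52), Cacna1b (0.58) and Cacna1g (0.60) fell below the call.

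Committed precursors had less than precursors of every member on average, with Cacna1a at 208, 428, 443 and 332 CPM and Cacna1c at 140, 315, 244 and 224 CPM. Microglia had 320, 592, 471 and 443 CPM of Cacna2d1 and 296, 303, 255 and 350 CPM of Cacna1d. Neuron markers in microglia were at 34.2% to 68.7% of neurons. Cacna1d was at 80.5% to 99.9% of its neuron level there, above the markers in 4 of 4 libraries, and Cacna2d3 and Cacna1e were above them in none.

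Many genes of the other lists were lower in glia too. Active zone genes were lower in glia in 11 of 13 cases, led by Syt1 (log2 -2.18), Erc2 (-1.97), Rims1 (-1.80) and Rimbp2 (-1.77), with a list median of -1.55. Beta subunit genes Cacnb2 (-1.17) and Cacnb3 (-0.78) were lower, as were 4 of 6 gamma genes tested, led by Cacng3 (-1.97). Of partners, Grin2a, Grin1 and Grin2b, which encode subunits of the NMDA receptor, were lower and Prnp, the prion protein gene, higher (log2 0.63). Among store genes Ryr3 and Ryr2 were lower (-2.10 and -2.08) and Itpr2 and Orai1 higher (2.50 and 1.61), and 5 of 8 pump and exchanger genes were lower and none higher. In precursors 11 of 13 active zone genes were higher than in astrocytes and oligodendrocytes, and Cacng4 of the gamma family had the largest fold of the lists in that direction (log2 3.89, SE 0.12, adjusted p = 2.67e-20).

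Differences between the injured and naive libraries, and between the genotypes, can only be described, because each group is 1 library. Ratios below are log2 with 95% exact conditional binomial intervals, which cover counting error only, and a call means past 1.5-fold with at least 100 UMIs over the 2 libraries. One day after SNI in the wild type, none of the 10 members was past 1.5-fold in excitatory or in inhibitory neurons, where 3.42% and 3.39% of all genes were. The member ratios ran from -0.29 to 0.39 in excitatory and from -0.12 to 0.16 in inhibitory neurons. Cacna2d1, the gabapentin target, was at -0.17 (-0.21 to -0.13) in excitatory neurons, from 1350 to 1198 CPM. It was below 0 in 10 of 10 excitatory clusters, which are parts of the same libraries. Cacna2d3 was at 0.39 (0.28 to 0.50) in excitatory neurons and 0.00 in inhibitory neurons, where it is abundant.

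Cacna1a was at 0.22 (0.18 to 0.26) in excitatory and 0.16 (0.11 to 0.22) in inhibitory neurons, above 0 in 10 of 10 excitatory and 8 of 8 inhibitory clusters. In the knockout the injured library was also above the naive one, at 0.28 (0.25 to 0.32) and 0.21 (0.17 to 0.26), again in 10 of 10 and 8 of 8 clusters. The clusters of a comparison are parts of the same libraries, so their counts are not independent repeats. These ratios are under 1.5-fold. The summed level of 6 transcripts abundant in the cytoplasm (Actb, Aldoc, Gapdh, Eef1a1, Tmsb4x and Fth1) was also higher in both injured libraries, at 1097, 1086, 1733 and 1602 CPM in excitatory and 962, 1035, 1610 and 1478 CPM in inhibitory neurons. Its part in the Cacna1a result was not tested. Cacna1e was at -0.22 (-0.28 to -0.17) in excitatory and -0.12 (-0.19 to -0.05) in inhibitory neurons of the wild type, and at -0.06 and -0.08 in the knockout, where it was at 0.04 and 0.02 with totals over long genes.

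In the knockout 1 of 20 values in the neuron classes was past 1.5-fold after injury. Cacna2d1 in inhibitory neurons went from 268 to 156 CPM, a log2 ratio of -0.78 (-0.89 to -0.67). Of all genes 8.73% were past 1.5-fold in inhibitory and 9.59% in excitatory neurons. Cacna2d3 in excitatory neurons went from 316 to 216 CPM, at -0.55 (-0.62 to -0.47), and was past 1.5-fold with normalisation by TMM (-0.63). In excitatory neurons Cacna2d1 was at 0.04, from 1333 to 1372 CPM, and at -0.05 with TMM, so its direction depends on the scaling. This comparison shares the naive knockout library with the next one.

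Without injury the knockout differed from the wild type by over 1.5-fold in 2 of 20 values. Cacna2d1 in inhibitory neurons was at 268 against 116 CPM, a log2 ratio of 1.21 (1.08 to 1.34), and Cacna2d3 in excitatory neurons at 316 against 152 CPM, 1.05 (0.96 to 1.15). Of all genes 13.1% were past 1.5-fold in inhibitory and 14.8% in excitatory neurons, with 3.62% and 3.71% higher. Where the genes are abundant the same libraries were close: Cacna2d1 in excitatory neurons had a ratio of -0.02 (0.09 with TMM) and Cacna2d3 in inhibitory neurons 0.09 (-0.07 with totals over long genes). Within clusters, an alternative chosen after seeing the data, Cacna2d1 was past 1.5-fold higher in 8 of 8 inhibitory clusters (0.76 to 1.78) and Cacna2d3 in 9 of 10 excitatory clusters (0.39 to 2.38). Both values were thus high in the naive knockout in the class where the gene is low, and across nearly all of its clusters, which are parts of the same libraries.

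Other genes of the opposite neuron class were higher there as well. The summed excitatory markers in inhibitory neurons were at 55.1, 81.7, 65.0 and 67.2 CPM, and the summed inhibitory markers in excitatory neurons at 154, 238, 180 and 171 CPM. No marker of either list was at 0. Of 87 genes other than the members that were at least 4-fold lower in inhibitory than in excitatory neurons, 26 had at least 100 UMIs in inhibitory neurons over the injured libraries, which this comparison does not use. Of these, 22 were above 0 in the naive knockout over the naive wild type, with a median of 0.48. Of 61 genes at least 4-fold lower in excitatory neurons, 24 had that many UMIs there and 17 were above 0, with a median of 0.61. The medians over all genes were 0.00 and -0.02. These gene sets were chosen after seeing the data, and the part of RNA from the other class in the Cacna2d1 and Cacna2d3 values was not tested.

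After injury no member was past 1.5-fold between knockout and wild type in either neuron class, where 2.65% of all genes were in excitatory and 2.24% in inhibitory neurons. Cacna2d1 was at 0.20 (0.16 to 0.23) in excitatory and 0.33 (0.19 to 0.48) in inhibitory neurons. Cacna1a was at -0.12 in both classes, and without injury at -0.18 in excitatory and -0.17 in inhibitory neurons. Cacna1e, which lies on chromosome 1 as Gpr37l1 does, was at 0.11 and 0.03, and without injury at -0.05 and -0.01.

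**Figure D5:**
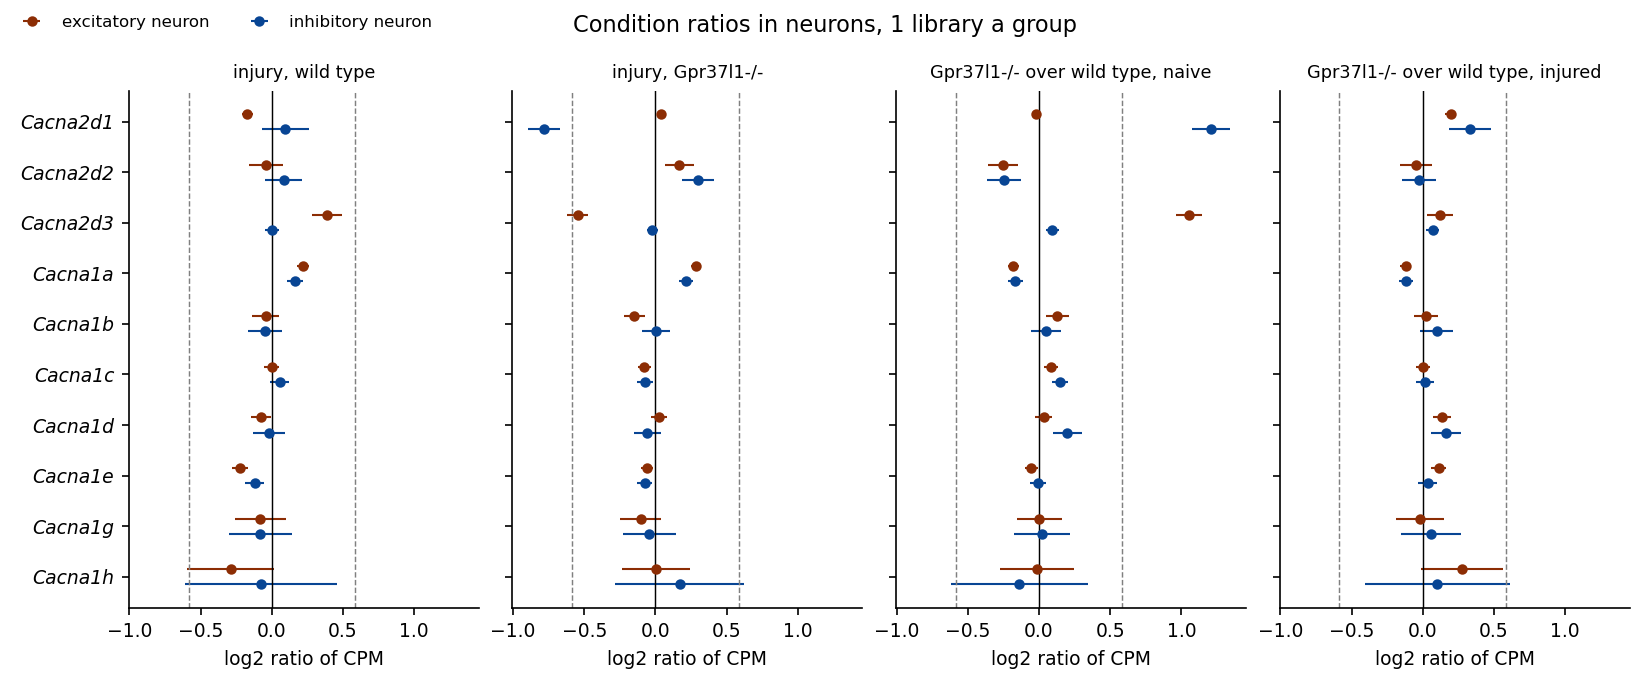
log2 ratio of CPM between 2 libraries for each member in excitatory and inhibitory neurons, in 4 comparisons; bars are 95% counting intervals, dashed lines mark 1.5-fold. Points lie between the dashed lines except Cacna2d1 in inhibitory neurons in both comparisons that use the naive knockout (1.21 and -0.78) and Cacna2d3 in excitatory neurons of the naive comparison (1.05).

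Scaling matters for these long genes. With totals taken over genes spanning more than 100 kb instead of all genes, the naive knockout ratios fell by 0.16 in both neuron classes, and the median of such genes in that comparison was 0.16 in each against -0.02 and 0.00 over all genes. Cacna2d1 in inhibitory neurons was then at 1.04 and Cacna2d3 in excitatory neurons at 0.89, both still past 1.5-fold.

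In glia the naive knockout library had the highest value of most members. In astrocytes Cacna2d1 was at 343 against 115 CPM in the naive wild type (log2 1.58, 1.27 to 1.90, from 474 and 104 UMIs). Cacna1b had the highest ratio there, 1.90 (1.23 to 2.65), at 86.8 against 23.2 CPM, but with 21 UMIs in the wild type. So that the naive knockout does not choose the genes, its comparisons in the counts that follow use another minimum. It was 100 UMIs in the sum of the 2 libraries left out of a comparison, an alternative chosen after seeing the data. Against the naive wild type 7 of 8 members were then past 1.5-fold higher in astrocytes, 7 of 8 in oligodendrocytes and 6 of 9 in microglia, where 15.3%, 14.8% and 15.3% of all genes were. In microglia the summed microglia markers were at 4037 CPM in the naive wild type and 1722 CPM in the naive knockout. The part of this difference in the microglia ratios was not tested. The oligodendrocyte values of the naive knockout rest on 334 nuclei. Another 4450 nuclei of that library, in unnamed cluster 6 with some of the same leading genes, are left out of them.

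In precursors 2 of 8 members were past 1.5-fold higher (Cacna2d1 and Cacna1b, beside 12.6% of all genes). In committed precursors these were Cacna2d1, Cacna1a and Cacna1c, the 3 members with enough UMIs (beside 19.9%), with 35 to 52 UMIs each in the wild type. The neuron markers in astrocytes of the naive knockout were also the highest of the 4 libraries (5366 against 1861 to 3049 CPM), and their part in these ratios was not tested. The injured knockout was lower than the naive one in 2 of 7 members in astrocytes (6.05% of all genes were) and 7 of 8 in oligodendrocytes (11.1%), again a comparison with the naive knockout. In oligodendrocytes it again rests on the 334 nuclei of that library. Between the injured libraries no member was past 1.5-fold in astrocytes, oligodendrocytes or microglia, where 5.01%, 4.59% and 8.64% of all genes were. In precursors Cacna2d1 was, at 382 CPM in the knockout against 219 CPM in the wild type (log2 0.80, 0.47 to 1.14, from 219 and 113 UMIs), beside 6.59% of all genes.

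The comparison of the 2 wild-type libraries in glia also used the minimum over the libraries compared. A gene that is high in either of them reaches that minimum more easily, so it favours genes that differ. Wild-type microglia had 3 of 8 members past 1.5-fold higher after injury, beside 13.1% of all genes. These were Cacna1c, from 285 to 467 CPM (log2 0.71, 0.49 to 0.93), Cacna1e, from 234 to 380 CPM (0.70), and Cacna2d3, from 207 to 327 CPM (0.66). Cacna1d, the member closest to its neuron level in microglia, was at -0.21 (-0.44 to 0.02). In oligodendrocytes Cacna1b went from 33.1 to 51.9 CPM (0.65, 0.23 to 1.07, from 80 and 126 UMIs), where 6.08% of all genes were past 1.5-fold higher. In committed precursors Cacna1a went from 208 to 443 CPM (1.09, 0.62 to 1.59, from 52 and 129 UMIs) and Cacna1c from 140 to 244 CPM (0.80, 0.20 to 1.43, from 35 and 71 UMIs), beside 8.73%. No member was past 1.5-fold in astrocytes or precursors. The minimum over the 2 knockout libraries was an alternative chosen after seeing the data. It gave the same members in microglia (3 of 9) and oligodendrocytes (1 of 8), and again none in astrocytes or precursors. In committed precursors 4 of 5 members were then past 1.5-fold higher, with Cacna2d3 and Cacna1e added, beside 132 of 1066 genes. Cacna2d3 went from 52.0 to 148 CPM there, from 13 and 43 UMIs. Neuron markers between the 2 wild-type libraries went from 6822 to 12546 CPM in microglia and from 2331 to 3221 CPM in oligodendrocytes. In committed precursors they went from 2751 to 4680 CPM. The microglia class itself also differed between these libraries. Its 8 microglia markers summed to 4037 CPM in the naive and 1602 CPM in the injured wild type. Its median UMIs were 878 and 1233. Microglia cluster 22, with a median doublet score of 0.148, gave 149 of 555 and 327 of 791 nuclei. The part of the neuron markers and of the make-up of the class in these ratios was not tested.

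The other lists gave few values past 1.5-fold in neurons. In the wild type after injury none of the genes with enough UMIs in the 7 lists was past it in either neuron class. In the knockout after injury 1 gamma family gene, Cacng5 (log2 0.59), was higher in excitatory neurons, and without injury 1 gene of calcium stores and entry, Itpr1 (0.60), was higher in inhibitory neurons of the knockout, both just past 1.5-fold and named after their values were seen. After injury none differed between the genotypes by that much.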

How the data were processed

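Each deposited matrix gives UMI counts that were not normalised, 1 for every gene in every nucleus, from Cell Ranger 7.0.0 (per the file headers). GRCm38, R 4.3.0 and Seurat 4.3.0 are named, with no role, in the submitters' processing notes. Use of introns and strand in counting is not given in the sources used here. Of 32285 gene IDs 32235 matched GENCODE vM21.

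A nucleus needed 300 genes or more and less than 5% of UMIs from mitochondrial genes, and 552 of 112746 barcodes failed this. Doublets were scored with scrublet in scanpy 1.11.5 at an expected 10%. Its automatic threshold marked under 0.5% in some libraries, so scores above the 90th percentile were removed in each library, and 101268 nuclei remained. Clustering used 3000 variable genes without the members and listed genes, 40 principal components, 20 neighbours and Leiden resolution 1 (leidenalg 0.10.2). Clusters took a class name from marker genes, and others stayed unnamed.

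UMIs were summed by class and library. Classes were compared with edgeR 4.0.16 (quasi-likelihood, TMM, library as block, Benjamini-Hochberg over 14144 genes), and a call needed an adjusted p under 0.05 and 1.5-fold. The script was tested on simulated data. With 1 library per group, conditions have no test, and a call needed 1.5-fold and at least 100 UMIs over the 2 libraries compared, or, where stated, over the other 2. Alternatives were DESeq2 1.42.0, other filters, scalings, thinning, other clusterings and leaving out each library. Named are all members, at most 4 called genes of a list per contrast, the 3 genes most like each member and 3 leading genes of a cluster. The members and lists were chosen with earlier results of these data known.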

Additional observations from a re-analysis of the deposited data

Results flagged for a closer look

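In excitatory neurons Cacna2d1 and Cacna2d3 moved in opposite directions after injury in the 2 genotypes. The injury log2 ratio of Cacna2d1 was -0.17 in the wild type and 0.04 in the knockout, a difference (knockout minus wild type) of 0.21, although with TMM the knockout ratio was -0.05. For Cacna2d3 the ratios were 0.39 and -0.55, a difference of -0.93. Neither difference was tested, since each group is 1 library. For Cacna2d3 the naive knockout was the highest of the 4 libraries (316 CPM against 152 to 216 CPM).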

How the results depend on the processing

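Members called in inhibitory against excitatory neurons numbered 4 under every alternative but thinning, which gave 5 by adding Cacna2d2, and in glia against neurons 10 under each. Leaving out each library in turn gave 4 to 4, 10 to 10 and, for precursors against astrocytes and oligodendrocytes, 9 to 10, where only Cacna1h was lost. That last count was 9 with stricter nuclei and with thinning (Cacna1h lost), 8 with each library clustered on its own (Cacna1g and Cacna1h) and 7 at resolution 0.5. After injury in the wild type 1 value was past 1.5-fold with each library clustered on its own, against 0, namely Cacna2d3 in excitatory neurons at 0.63. After injury in the knockout TMM gave 2 values, against 1, by adding Cacna2d3 in excitatory neurons at -0.63; the cause was not tested. Without injury the 2 values past 1.5-fold kept that call under all alternatives (Cacna2d1 1.04 to 1.29, Cacna2d3 0.89 to 1.19), and after injury the genotypes differed in 0 values throughout. No paired analysis was possible because each group has 1 library and the groups share only replicate number 1. Values near 10 CPM, such as those of Cacna1h in glia, rest on few UMIs.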

Other observations

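Over all kept nuclei, named or not, Cacna1a was at 848, 779, 940 and 883 CPM, with the injured libraries above the naive ones of their genotype, as in the neuron classes, where transcripts abundant in the cytoplasm were also higher in the injured libraries; their part was not tested. Of its UMIs 41.0% to 52.3% came from the named neurons, so much of the signal of these genes lies in nuclei without a class name. In the unnamed neuron clusters 0 and 25 Cacna1a was above 0 after injury in both clusters in both genotypes, with log2 ratios of 0.23 to 0.31 in the wild type and 0.14 to 0.20 in the knockout. Cacna2d1 was above 0 in both clusters in the wild type (0.06 to 0.13), unlike in the excitatory clusters, and below 0 in both in the knockout (-0.37 to -0.21). Cluster 25, led by Abcc9, Ctcflos and Rreb1, had 711 to 921 CPM of Cacna2d1 and 128 to 204 CPM of Cacna2d3, near the lowest excitatory clusters for both genes.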
